A study of Mus musculus with 8 samples.

Results

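In MH-S cells, a line of mouse alveolar macrophages, 2 of 8 RNA-seq libraries stood apart from the other replicates of their own group, in part through the same genes. They are control replicate 1 and LPS+RCMNs replicate 2, and they were chosen by these counts: the chi-square per degree of freedom against the other replicates was 47.4 and 44.5 for control replicate 1 and 42.7 and 35.5 for LPS+RCMNs replicate 2. It was 1.93 between control replicates 2 and 3, 2.82 between LPS+RCMNs replicates 1 and 3, and 12.5 between the 2 LPS libraries. Control cells received PBS (n = 3), a further group received LPS, the bacterial wall component lipopolysaccharide (n = 2), and the LPS+RCMNs group (n = 3) received 100 ng/mL LPS with 1 µg/mL RCMNs, nanoparticles that respond to reactive oxygen species. The dose of LPS given alone is not stated in the sources used here. The labels give no passage, density, medium or harvest for any replicate, or whether each replicate was grown as a culture of its own. Every level below comes from 1 cell line.

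Alveolar macrophages are the resident phagocytes of the airspaces. When activated they secrete chemokines, which call in other leukocytes, and proteases, which cut matrix. Immediate early genes such as Fos and Egr1 encode transcription factors that are transcribed within minutes of a stimulus and whose transcripts decay fast. Growth factors, adhesion, fresh serum and inflammatory ligands all drive them. When amino acids run short or proteins misfold, translation slows and the factor ATF4 switches on genes for amino acid import, synthesis and tRNA charging, a programme called the integrated stress response.

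Promoters were examined for 3 of the gene groups described below, using RefSeq sequences on build GRCm38.p6, which run from 250 bases before to 50 bases after a transcription start. The first 2 sequences are from matrix protease genes that were lower in both libraries, and capitals mark TGANTCA, the letters bound by AP-1, the dimer of Fos and Jun proteins. The next 2 are from amino acid stress genes that differed between the libraries, and capitals mark TGATGNAA, the composite element bound by ATF4. The last is from the metallothionein gene with the largest gap between the 2 libraries. Capitals there mark TGCNCNC, a pattern looser than the core of the metal response element bound by MTF-1, which it includes. Both strands were searched, and none of the 3 motifs contains another.
Mmp13, chr9:7272264-7272563, plus strand: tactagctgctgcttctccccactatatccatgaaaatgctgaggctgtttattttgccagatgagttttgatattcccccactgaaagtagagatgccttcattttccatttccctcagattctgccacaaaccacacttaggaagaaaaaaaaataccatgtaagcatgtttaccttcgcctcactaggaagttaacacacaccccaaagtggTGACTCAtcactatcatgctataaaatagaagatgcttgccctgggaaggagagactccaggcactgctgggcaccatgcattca
Mmp12, chr9:7347124-7347423, plus strand: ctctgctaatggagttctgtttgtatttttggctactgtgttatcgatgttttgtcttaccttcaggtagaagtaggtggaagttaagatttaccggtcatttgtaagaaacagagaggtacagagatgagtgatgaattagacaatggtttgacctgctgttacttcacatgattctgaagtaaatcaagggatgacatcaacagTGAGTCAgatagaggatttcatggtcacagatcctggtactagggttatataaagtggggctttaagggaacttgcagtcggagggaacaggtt
Slc7a11, chr3:50443564-50443863, minus strand: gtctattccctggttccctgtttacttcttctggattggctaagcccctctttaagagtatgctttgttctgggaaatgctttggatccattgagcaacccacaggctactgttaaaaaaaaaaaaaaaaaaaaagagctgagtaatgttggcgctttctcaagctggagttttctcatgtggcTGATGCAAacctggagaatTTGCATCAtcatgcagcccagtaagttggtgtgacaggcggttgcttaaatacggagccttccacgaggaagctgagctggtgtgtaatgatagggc
Trib3, chr2:152344011-152344310, minus strand: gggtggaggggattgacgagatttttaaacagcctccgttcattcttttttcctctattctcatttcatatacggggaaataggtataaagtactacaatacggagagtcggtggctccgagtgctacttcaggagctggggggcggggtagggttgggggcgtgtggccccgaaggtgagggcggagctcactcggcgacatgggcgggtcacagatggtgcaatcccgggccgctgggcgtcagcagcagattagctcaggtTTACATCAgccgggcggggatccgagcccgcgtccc
Mt2, chr8:94172368-94172667, plus strand: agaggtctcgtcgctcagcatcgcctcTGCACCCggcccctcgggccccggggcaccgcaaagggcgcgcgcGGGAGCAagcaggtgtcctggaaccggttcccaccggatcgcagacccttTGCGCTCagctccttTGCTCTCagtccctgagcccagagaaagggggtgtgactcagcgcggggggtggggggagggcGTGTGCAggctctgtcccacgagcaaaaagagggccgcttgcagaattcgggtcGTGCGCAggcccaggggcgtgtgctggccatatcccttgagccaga

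The AP-1 letters begin 35 bases before the start in Mmp13 and 44 bases before it in Mmp12, which has a further promoter in the table without them. They stood in 7 of the 31 promoters (22.6%) found for 24 of the 37 genes that were at least 2-fold lower in both libraries at a mean FPKM of at least 5. The share was 5.17% over the 11802 promoters of tested genes and 7.81% over all 32851. The other 5 genes with a match were C3ar1, Selp, Slc37a2, Tbxas1 and the globin gene Hbb-bs, and the Fos, Ptgs2 and Plin2 windows held none. TGATGNAA stood in 8 of 23 promoters (34.8%) of the integrated stress response list, against 2.32% for tested genes and 3.97% of all. In Slc7a11 it occurs 2 times, at 66 and 47 bases before the start. TGCNCNC is frequent, in 51% of all promoters, and occurs 6 times in the Mt2 window. As a loose pattern it also takes in stretches that are not metal response elements, so the 6 matches need not all be such elements. These are matches of letters, with no measurement of binding.

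The 6 control and LPS+RCMNs libraries had between 18.6 and 20.4 M (mega) counts, and 11464 of 17518 listed genes were tested. A count of 0 in these libraries allows a level of up to 0.139 to 0.163 CPM, where CPM is counts per M after scaling of the libraries, counting error only. Macrophage markers were present in all 6 (all 18 listed genes, summed levels of 6067 to 10061 CPM). Markers of lymphocytes (at most 1.25 CPM summed) and epithelium (at most 0.901 CPM) were near the floor. Neutrophil markers summed to 8.12 to 30.4 CPM, dendritic cell markers to 5.66 to 17.9 CPM, and fibroblast and endothelial markers to 2.14 to 4.15 CPM. Control replicate 1 and LPS+RCMNs replicate 2 had counts in 13812 and 13780 genes, fewer than the 14001 to 14263 of the other 4. The rank correlation across 10844 genes of a library's difference from its group with gene length was -0.06 for control replicate 1 and -0.17 for LPS+RCMNs replicate 2.

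Throughout, a library's difference is its log2 CPM minus the mean of the other 2 libraries of its group. Since these differences chose the libraries, they are given as values, with no test. At least 2-fold in both libraries and in the same direction, 128 genes were lower (1.12% of tested genes) and 11 higher (0.096%), and no inference is drawn from these shares. Of these 139, 138 lay outside the range of the other 2 libraries in both groups. The 2-fold rule largely fixes that in advance, so it is no further evidence. Control replicate 1 by itself had 197 genes at least 2-fold higher and 390 lower (5.12% in all), and LPS+RCMNs replicate 2 had 51 higher and 445 lower (4.33%). The 128 genes are thus 32.8% of those lower in the former and 28.8% of those lower in the latter, while 11 genes were 2-fold higher in the former and lower in the latter and 6 the other way round. The name of a shared difference therefore holds in part. Across genes the 2 differences had a Pearson correlation of 0.41 (Spearman 0.42, n = 11464) and the same sign in 65.1%. The values share the depth of each library and the scaling. The differences within the close pairs had a correlation of 0.01, whose sign depends on the order of subtraction. Their SD across genes was 0.23 and 0.24, against 0.50 and 0.46 for the 2 libraries. The libraries were chosen for standing apart, so this contrast follows in part from the choice and is description only.

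**Figure D1:**
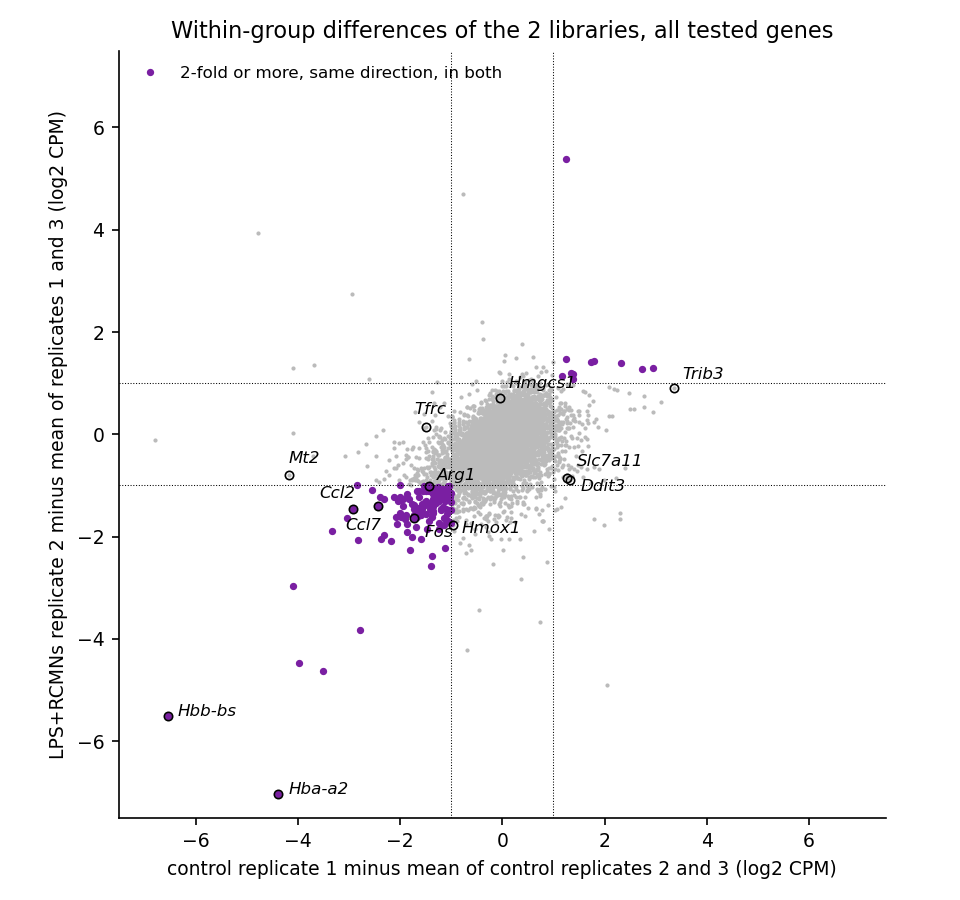
Each point is 1 of 11464 tested genes, with the difference of control replicate 1 from the mean of control replicates 2 and 3 on the x axis and that of LPS+RCMNs replicate 2 from the mean of replicates 1 and 3 on the y axis (log2 CPM, dotted lines at 2-fold). The 128 genes lower in both are at lower left and the 11 higher in both at upper right, while Mt2, Tfrc, Ddit3 and Slc7a11 lie off the diagonal.

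Chemokines for monocytes and neutrophils were among the genes lowest in both libraries. Ccl2, the main attractant of monocytes (chromosome 11, 82035577 to 82037452), read 51.7 CPM in control replicate 1 against 278 and 281 CPM in control replicates 2 and 3. In LPS+RCMNs replicate 2 it read 780 CPM, against 2175 and 1971 CPM in replicates 1 and 3. The differences were -2.43 and -1.41 on the log2 scale, and in each group the 2 close libraries lay far above the third. Even so, the lowest LPS+RCMNs library was above every control. Its neighbour Ccl7, another monocyte attractant, read 2.69 CPM against 22.2 and 19.8 in control, and 176 CPM against 499 and 469 with LPS+RCMNs. Cxcl2, which attracts neutrophils, read 0.604 CPM against 2.155 and 2.102 CPM, and 5.87 CPM against 19.99 and 16.4 CPM. Here both differences were alike, at -1.66 and -1.61.

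Of 36 tested inflammatory genes and targets of NF-kB, 6 were at least 2-fold lower in both libraries and none was higher. Over all tested genes the shares were 1.12% and 0.096%. The other 3 were Ccl3 (-1.24 and -1.73), Ccl4 (-1.66 and -1.11), both attractants of monocytes and T cells, and Ptgs2, the inducible cyclooxygenase (-2.44 and -1.40). The list's median difference was -0.47 in control replicate 1 and -0.16 in LPS+RCMNs replicate 2, where those of all tested genes were -0.00 and -0.02. Tnf, the central macrophage cytokine, was low only in the control library, at 28.1 CPM against 84.0 and 81.0. With LPS+RCMNs it read 186, 166 and 184 CPM in replicates 1 to 3, a difference of -0.15. Il1b, which encodes interleukin-1 beta, likewise read 7.33, 6.85 and 8.09 CPM with LPS+RCMNs, a difference of -0.17, and 0.0464 CPM (1 count, too few to size a difference) against 0.251 and 0.250 CPM in control. Lcn2 (-0.19 and -0.28), Saa3 (0.86 and 0.15), Icam1 (-0.14 and 0.17) and Sod2 (0.14 and 0.39), other genes that LPS drives, were less than 1.5-fold lower in either library. In control, Lcn2 read 0.139 CPM against 0.150 and 0.200, near the floor and too low to size a difference. Saa3 was higher in control replicate 1, at 20.5 CPM against 12.6 and 10.1. NF-kB's own subunit genes Nfkb2 (0.34 and 0.92) and Relb (0.06 and 0.70) were higher in LPS+RCMNs replicate 2.

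Several immediate early genes were low in both. Fos, a subunit of AP-1, read 4.36 CPM in control replicate 1 against 15.4 and 14.1, and 7.02 CPM in LPS+RCMNs replicate 2 against 22.3 and 21.8, with differences of -1.73 and -1.64. The 2 libraries thus had less Fos than any other library of either group. Egr1, a zinc finger factor, read 39.6 against 100.4 and 92.4 CPM, and 44.4 against 101 and 84.2 CPM. Egr3, its relative, read 27.4 against 75.0 and 75.2 CPM, and 16.3 against 34.0 and 31.6 CPM. Of the 27 genes of the list, 3 were 2-fold lower in both, against 1.12% of all tested genes. At 1.5-fold, 8 were lower in both and none higher, against 475 lower and 110 higher of all 11464 tested genes. The list's medians were -0.61 and -0.35. Fosl1, another AP-1 subunit, was lower in both by unequal amounts (-2.65 and -0.62), while Junb (-1.01 and 0.02) and Atf3 (0.19 and -0.92) were low in a single library. Nr4a1, another immediate early gene, was near its group in both (-0.10 and 0.03).

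Proteases and surface receptors made up a further group. Mmp12, the macrophage elastase, read 4.18 CPM against 12.9 and 12.5 in control and 45.3 CPM against 121 and 130 with LPS+RCMNs. The collagenase Mmp13, its neighbour on chromosome 9, read 1.72 against 7.72 and 7.56 CPM, and 15.2 against 47.5 and 45.8 CPM. Plau, the urokinase that activates plasminogen, read 554 against 1179 and 1046 CPM, and 596 against 1698 and 1623 CPM. These were the 3 of 20 matrix protease and adhesion genes that were 2-fold lower in both, against 1.12% of all tested genes. The list's medians were -0.41 and -0.40. Among 14 receptors for chemoattractants, C3ar1, the receptor for complement C3a, read 106 against 225 and 231 CPM, and 234 against 566 and 528 CPM. Cx3cr1, the receptor for fractalkine, was lower by like amounts in both libraries (-1.36 and -1.39). Fpr1, the formyl peptide receptor, differed by -1.60 and -1.58. In control replicate 1 Fpr1 read 0.0464 CPM, under the floor of 0.139 CPM and too low to size its difference there. C3ar1, Cx3cr1 and Fpr1 were the 3 of the 14 that were 2-fold lower in both, against 1.12% of all tested genes. For Fpr1 the control side of that count depends on the prior count. In contrast, S1pr1 (0.78 and -1.70), Cxcr4 (1.73 and -0.96) and Ccr1 (0.51 and -1.07) went apart.

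Arg1, the arginase of alternatively activated macrophages, read 80.5 CPM against 228 and 208 in control, and 79.7 CPM against 168 and 156 with LPS+RCMNs. Those 2 libraries had nearly the same level, and the 4 others lay well above it. Dcstamp, needed for fusion of macrophages, read 16.7 against 51.9 and 51.4 CPM, and 23.7 against 67.0 and 62.7 CPM. Plk2, a kinase induced by growth factors and stress, read 54.5 against 177 and 158 CPM, and 101 against 310 and 290 CPM. Pde1b, a phosphodiesterase that breaks down cyclic nucleotides, read 25.8 against 73.2 and 71.7 CPM, and 30.4 against 92.9 and 87.4 CPM. In these 3 genes both differences lay between -1.45 and -1.62. Hmox1, the haem-degrading enzyme, just missed the 2-fold mark in control (-0.96), and with LPS+RCMNs read 235 CPM against 898 and 719 (-1.77). At the threshold, Phlda1 (-2.84 and -1.0), Hbegf (-2.0 and -1.0) and Clec7a (-1.0 and -1.74) were the last genes inside, and Zswim8 (-1.02 and -0.99), Zfp948 (-1.18 and -0.98) and Scimp (-0.98 and -1.71) the first outside, at a mean FPKM of 5 or more.

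**Figure D2:**
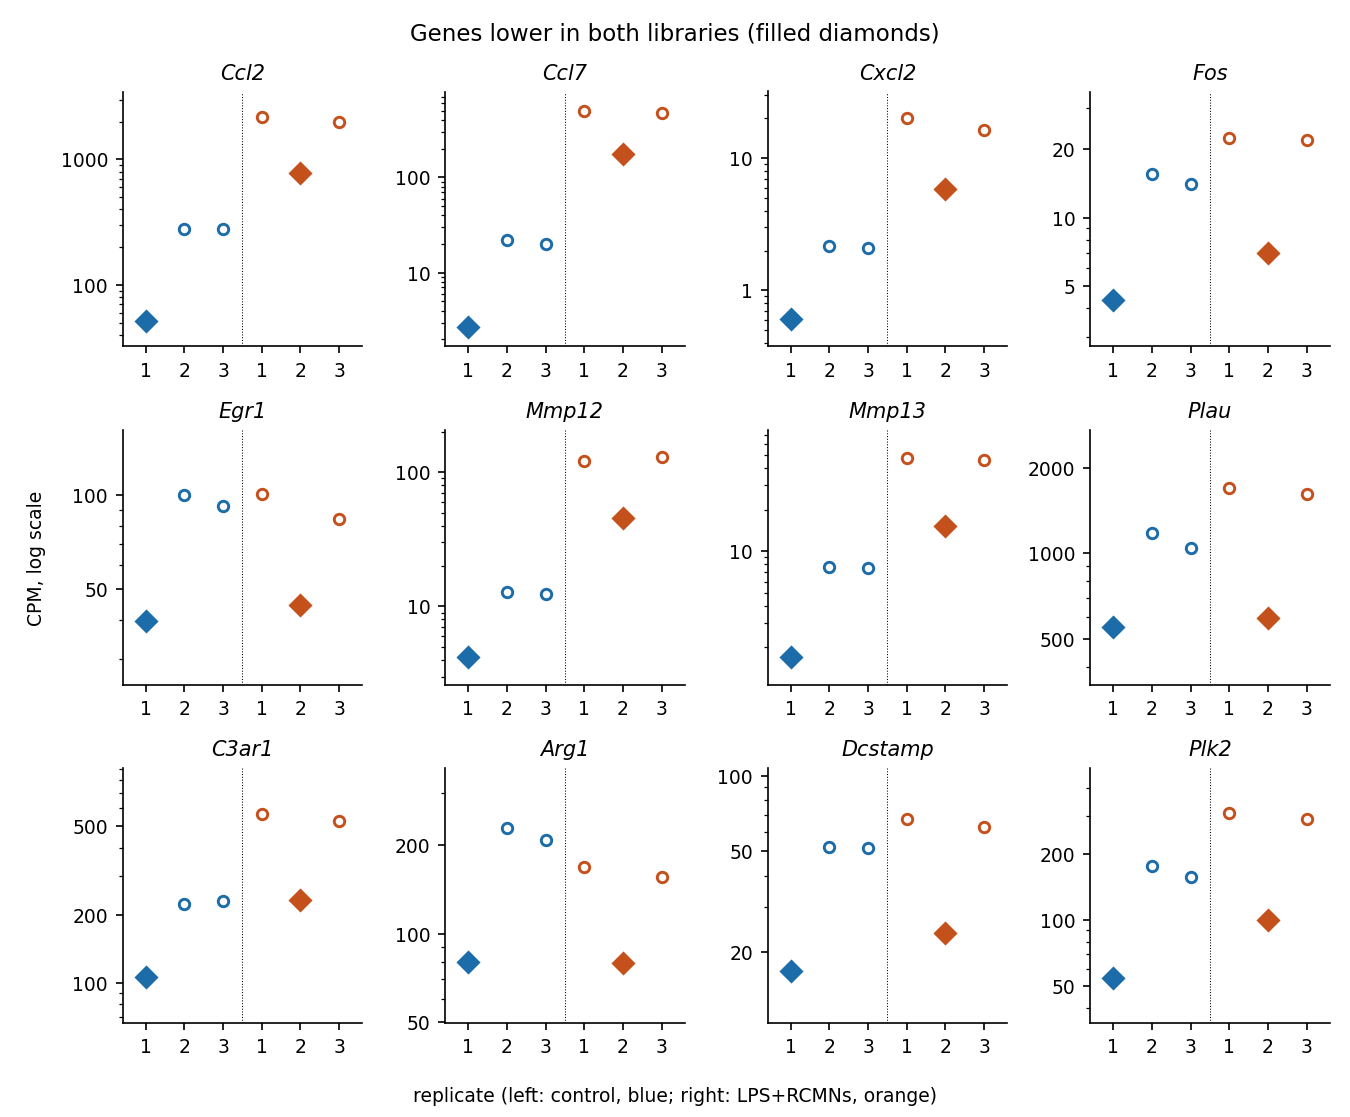
Levels of 12 genes (CPM, log axis) in control (blue) and LPS+RCMNs (orange) replicates 1 to 3, with filled diamonds for control replicate 1 and LPS+RCMNs replicate 2. In every panel the diamond lies below both open circles of its group, and the circles of a group lie close together.

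Few genes were higher in both. None of the 11 reached a mean FPKM of 5. They were Rflnb, Plekhh3, Brd3os, Slc1a4, 4930404N11Rik, Evi2, Tmem254a, Phldb3, Ksr1, Tnks1bp1 and Lzts2, named after their values were seen. Slc1a4, a carrier of neutral amino acids, read 32.2 CPM in control replicate 1 against 4.56 and 3.65, and 7.29 CPM in LPS+RCMNs replicate 2 against 2.86 and 2.99. Of the genes at a mean FPKM of 5 or more, those nearest to 2-fold in both were Trib3 (3.36 and 0.91), Lpin1, a phosphatase of lipid synthesis (1.19 and 0.89), and Adi1, of the methionine salvage pathway (0.92 and 0.87). At 1.5-fold in both, 34 such genes were higher and 169 lower. Dhcr7 (0.92 and 0.78) and Acat2 (0.72 and 0.75) of cholesterol synthesis and the mitotic gene Nusap1 (0.67 and 0.84) were among the 34.

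Red cell transcripts moved with the 2 libraries. Hbb-bs, a beta globin, had 0 counts in control replicate 1 against 177 and 201, which makes it at least 67.9-fold lower at the floor of 3 counts, and 4 counts in LPS+RCMNs replicate 2 against 262 and 284. Hba-a2, an alpha globin, had 7 counts against 188 and 164, and 0 against 269 and 233 (at least 81.9-fold lower). The erythroid markers summed to 1.30 and 1.14 CPM in the 2 libraries, to 22.5 to 37.8 CPM in the other 4, and to 4360 and 5625 CPM in the LPS libraries. Of 11 such markers in the table, only the 4 globins were tested, and all 4 were 2-fold lower in both, against 1.12% of all tested genes. Globin copies are nearly identical, so how their reads were divided is uncertain. Alas2, the haem synthase of red cells, read 8, 4 and 6 counts in control and 8, 1 and 12 with LPS+RCMNs, so it did not follow the globins in control. The part of these transcripts in the other differences was not tested.

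Genes at low levels also moved with the 2 libraries. Of the 128 genes, 91 had a mean FPKM under 5 and 61 under 1, although only 1294 of the tested genes are under 1. In 27 of the 128 a library that stood apart had at most 3 counts, so the size of its difference depends on the prior count. Summed over all 4116 listed genes with a mean level up to 0.3 CPM, the level in control replicate 1 was 0.803 times the mean of its 2 partners, and that in LPS+RCMNs replicate 2 was 0.688 times. The corresponding ratios were 1.05 and 0.992 at 10 to 30 CPM, and those within the close pairs were 0.967 to 1.04 throughout. The other 37 of the 128 had a mean FPKM of at least 5, among them Ccl2, Ccl7, Plau, C3ar1, Fos and Arg1. What sets the low-level ratio, and its part in the counts, was not tested.

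**Figure D3:**
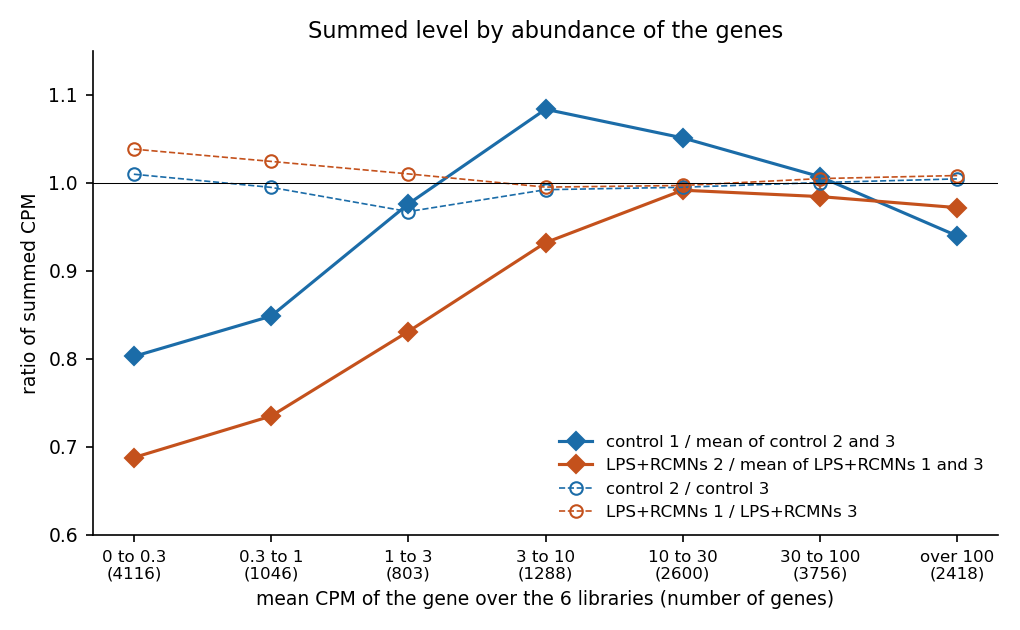
Ratio of summed CPM (y axis) for genes binned by mean CPM over the 6 libraries (x axis, number of genes in brackets), with filled diamonds for the 2 libraries against the mean of their partners and open circles for the close pairs. The diamonds reach 0.803 and 0.688 in the lowest bin, while the circles stay between 0.967 and 1.04.

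Most genes that were 2-fold from their group in 1 of these libraries were not so in the other, as the shares above show, and several gene lists differed between them. These differences too are given as values: each side is a single library that was chosen because it stood apart. An edgeR quasi-likelihood fit of the gap between the 2 differences called 33.5% of tested genes, and nothing is read from that share, since the choice of libraries enters it.

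One such list was the integrated stress response. All 25 tested genes were above their group in control replicate 1 (median 0.80, 11 of them at least 2-fold), against 18 of 25 in LPS+RCMNs replicate 2 (median 0.21, none 2-fold). Of all 11464 tested genes, 197 and 51 were at least 2-fold higher in these libraries. Trib3, a pseudokinase induced by ATF4, read 78.8 CPM in control replicate 1 against 8.17 and 7.06, and 20.8 CPM in LPS+RCMNs replicate 2 against 12.1 and 9.98. Ddit3, the stress factor CHOP, went opposite ways: it read 24.1 against 9.67 and 9.36 CPM in control, and 11.2 against 23.0 and 19.2 CPM with LPS+RCMNs. Slc7a11, the cystine importer, did the same, at 24.4 against 10.7 and 9.51 CPM, and 41.6 against 83.6 and 68.4 CPM. Atf4 itself (1.38 and 0.29), the one-carbon enzyme Mthfd2 (1.70 and 0.57) and the tRNA synthetases Cars (1.56 and 0.20) and Aars (1.39 and 0.32) were high in control replicate 1. Slc7a5, the leucine carrier, was higher by like amounts in both (0.75 and 0.68), and the synthetase Wars was near its group in both (0.24 and 0.13).

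Chaperones of the endoplasmic reticulum were lower in control replicate 1 while the ATF4 genes were higher. The median of 19 genes was -0.65 there and -0.25 in LPS+RCMNs replicate 2. Hspa5, the main chaperone of that compartment, differed by -1.54 and -0.65, Creld2 by -1.48 and -0.26, Hyou1 by -1.20 and -0.25 and Manf by -1.16 and -0.21. Herpud1, of the degradation arm, went the other way in control (0.84 and -0.77). Genes of growth arrest driven by FoxO factors had a median of 0.66 in control replicate 1 and 0.04 in LPS+RCMNs replicate 2. Genes of ribosome synthesis driven by Myc had medians of -0.34 and 0.14, with 3 and 16 of 23 above 0.

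Mt2, Mt1 and Tfrc were low in control replicate 1 above all. Mt2, a metallothionein that binds zinc and copper, read 3.67 CPM in control replicate 1 against 64.9 and 70.9, and 40.4 CPM in LPS+RCMNs replicate 2 against 73.3 and 67.7. Mt1, its neighbour on chromosome 8, read 82.7 against 183 and 181 CPM, and 159 against 186 and 191 CPM. The zinc transporter Slc30a1 was likewise low in control replicate 1, at 4.32 CPM against 24.9 and 24.1, but not in LPS+RCMNs replicate 2 (-2.47 and -0.03). Slc39a14, another zinc transporter, differed by -0.45 and 0.05. Slc39a10, an importer of zinc, was higher in both (1.77 and 0.66). Slc30a4 (0.39 and 0.44), Slc30a5 (-0.24 and -0.26) and Slc39a1 (-0.12 and -0.21), also zinc transporters, had like values in both. The medians of the 9 metallothionein and zinc transport genes were -0.24 and -0.03, and those of 15 iron and haem genes -0.07 and -0.09. Tfrc, the transferrin receptor that imports iron, read 192 against 536 and 537 CPM in control, whereas with LPS+RCMNs it read 732 against 664 and 657 CPM. Other genes with the same kind of gap were the kinase Dmpk (-2.66 and -0.19), the growth factor Pdgfb (-2.27 and -0.72) and the lipase Lpl (-1.68 and -0.45). Spp1, osteopontin, read 1626 against 3037 and 2817 CPM in control, and 6469 against 7033 and 6725 with LPS+RCMNs.

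LPS+RCMNs replicate 2 had low values of its own. For comparison, the medians of all tested genes were -0.00 in control replicate 1 and -0.02 in LPS+RCMNs replicate 2. Genes stimulated by interferon had a median of -0.58 there against -0.04 in control replicate 1, and 2 of 32 were above 0. Usp18 differed by 0.36 and -1.56, Rsad2 by 0.06 and -1.13 and Irf7, a factor of interferon induction, by -0.37 and -1.15. Lysosomal genes had medians of -0.35 and 0.10 in that order, with 2 of 39 above 0 in LPS+RCMNs replicate 2 and 25 in control replicate 1. Gpnmb, a glycoprotein of phagosomes, read 1562 CPM there against 2650 and 2534, but 2434 against 1979 and 1924 CPM in control replicate 1. Vegfa, the vascular growth factor, read 54.6 against 113 and 96.7 CPM, with 112 against 122 and 113 CPM in control. Xdh (0.52 and -1.06), Tecpr1 (0.49 and -1.08), Abcg1 (1.45 and -0.72) and Ndrg1 (0.91 and -0.75) were higher in the control library and lower in the LPS+RCMNs library, and Pck2, the mitochondrial PEP carboxykinase, was higher in the former only (1.48 and -0.23).

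The same library had higher sterol, mitotic and proteasome genes, where the medians of all tested genes were -0.00 in control replicate 1 and -0.02 in LPS+RCMNs replicate 2. Hmgcs1, of cholesterol synthesis, read 320 CPM in LPS+RCMNs replicate 2 against 196 and 195, whereas control replicates 1 to 3 read 323, 338 and 327 CPM. It is thus the library of its group that lay at the control level. Of 24 cholesterol genes, 22 were above 0 in LPS+RCMNs replicate 2 (median 0.35), against 13 in control replicate 1 (0.02). All 20 mitotic genes were above 0 in LPS+RCMNs replicate 2 (median 0.44), with Cdc20 at 1.18, Plk1 at 0.99 and Aurka at 0.85. The corresponding median in control replicate 1 was 0.21, with 15 above 0. Mki67, the proliferation marker, lay near its group in both (-0.02 and 0.02). Of 31 proteasome genes 30 were above 0 in LPS+RCMNs replicate 2 (median 0.24) and 25 in control replicate 1 (0.09). Genes of oxidative phosphorylation had medians of 0.16 in control replicate 1 and 0.17 in LPS+RCMNs replicate 2, and cytosolic ribosomal proteins of -0.04 and 0.04.

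**Figure D4:**
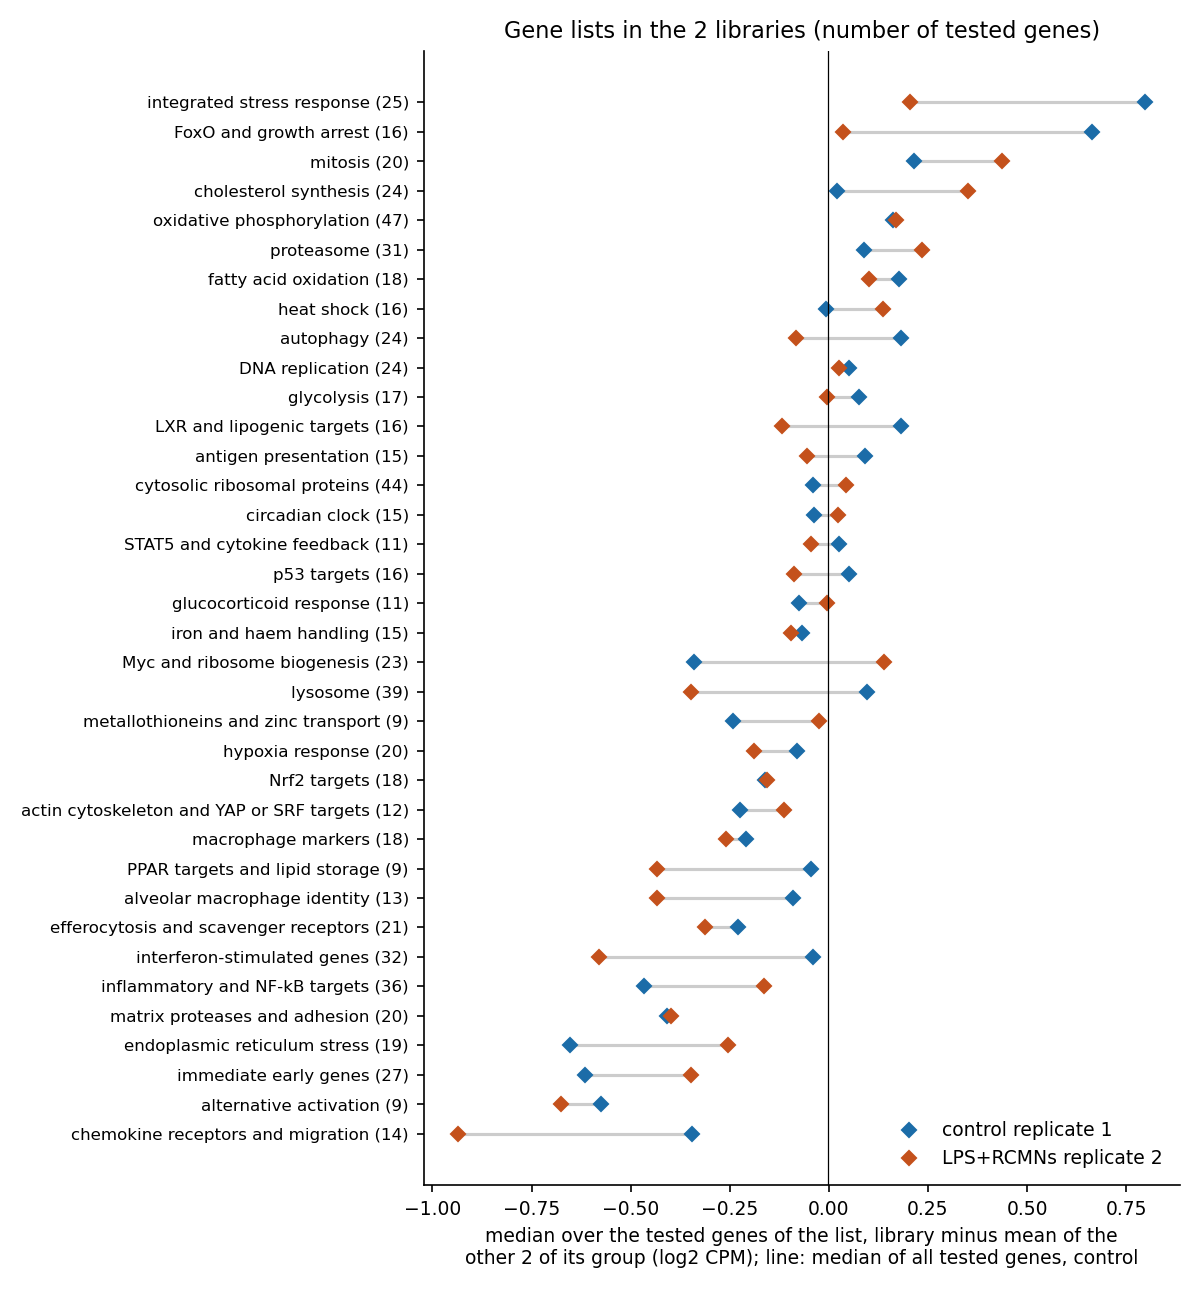
Median difference (x axis, log2 CPM) over the tested genes of each list for control replicate 1 (blue) and LPS+RCMNs replicate 2 (orange), for lists with at least 9 tested genes. Both markers lie left of 0 for matrix protease, immediate early and receptor genes, while they stand on opposite sides for lysosome genes (0.10 and -0.35) and ribosome synthesis genes (-0.34 and 0.14).

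**Figure D5:**
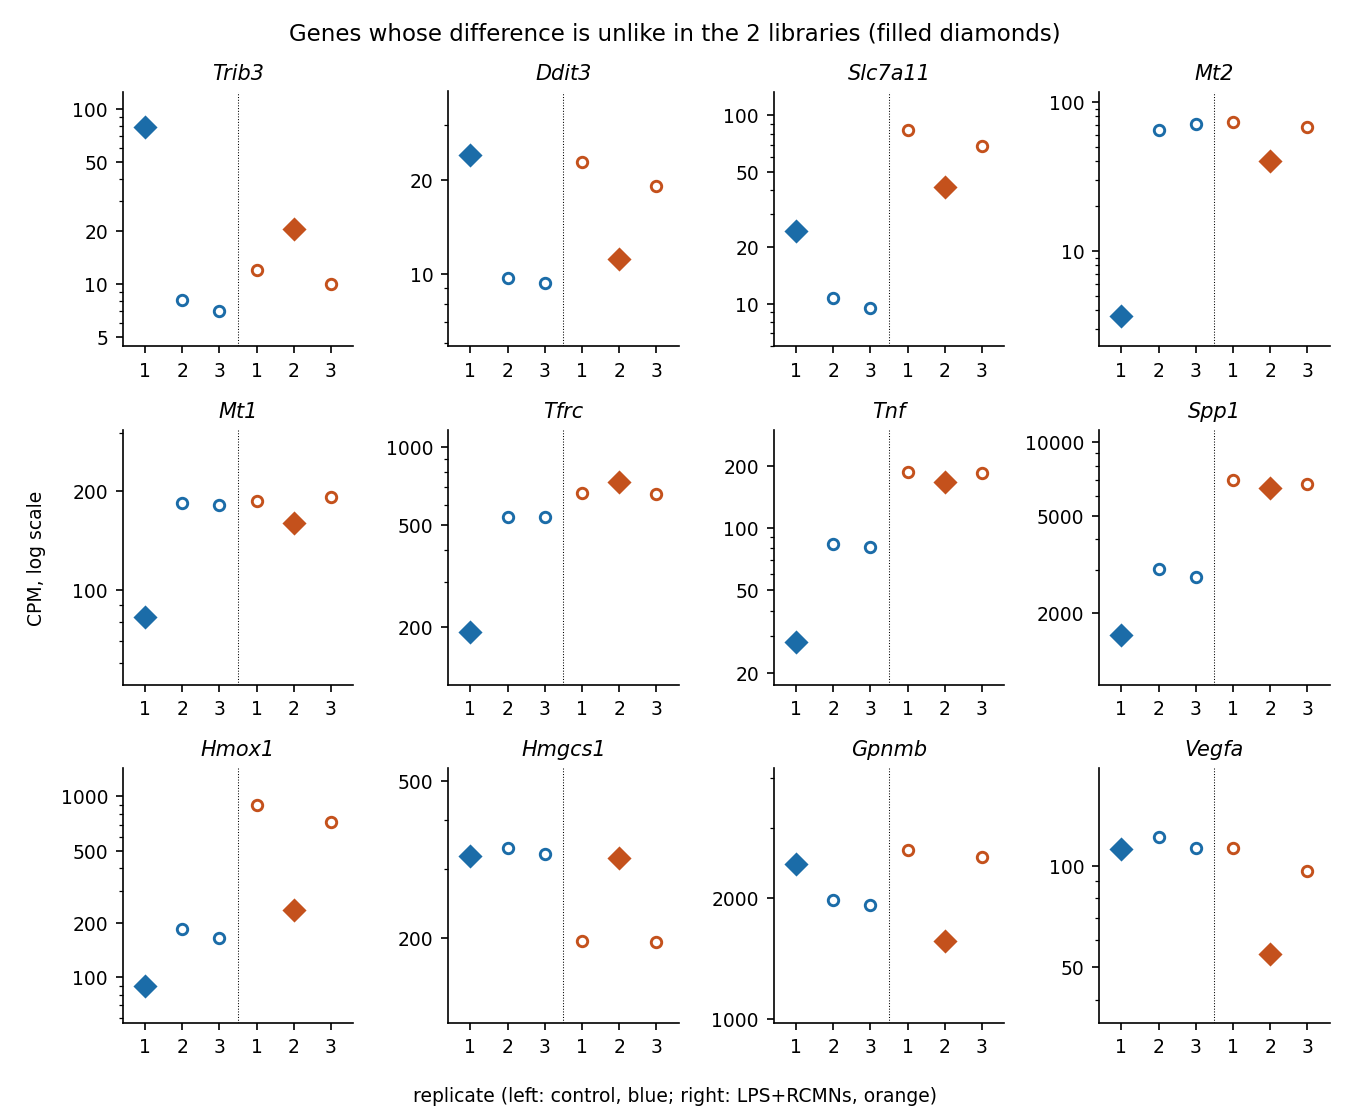
Levels of 12 genes (CPM, log axis) in control (blue) and LPS+RCMNs (orange) replicates 1 to 3, with filled diamonds for control replicate 1 and LPS+RCMNs replicate 2. Mt2, Tfrc and Tnf stand apart mainly in control, Hmgcs1 and Vegfa with LPS+RCMNs, and Ddit3 and Slc7a11 move in opposite directions.

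The LPS libraries, which were not used to choose anything, gave a further reading of the same genes, with 1 library on each side and no test. Over the 128 genes the median log2 difference of LPS replicate 1 minus LPS replicate 2 was -0.31, against 0.00 for all tested genes, and 101 of the 128 were lower in LPS replicate 1. All tested genes are not matched in level to the 128, of which 91 had a mean FPKM under 5. LPS replicate 1 had counts in 14916 genes and LPS replicate 2 in 15266. The part of low levels in that median was not tested. Pde1b read 17.3 and 36.6 CPM, Fos 17.6 and 26.3 CPM and Cxcl2 144 and 197 CPM in LPS replicates 1 and 2. Mmp12 (89.7 and 84.8 CPM), Mmp13 (156 and 145 CPM) and Arg1 (31.2 and 23.1 CPM) did not follow that order. Globins were lower in LPS replicate 1 too, with Hbb-bs at 1847 and 2417 CPM. These libraries also differ from the others along gene length.

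Each treatment group holds 1 of the 2 libraries, so they widened the spread in the comparison of LPS+RCMNs with control. With all 3 libraries a group, 360 genes were higher and 242 lower with LPS+RCMNs (edgeR's quasi-likelihood test at an adjusted p of 0.05, 5.25% of tested genes), at a common biological coefficient of variation of 15.3%. With the library that stood apart as a term the coefficient was 9.01% and 1354 genes were higher and 1180 lower, and without both libraries 2667 were higher and 2508 lower. All 602 genes of the first fit were called in each of the other 2. The term and the omission were chosen from these counts, so the added calls are not independent evidence. Leaving out control replicate 1 alone gave 483 higher and 393 lower, and leaving out LPS+RCMNs replicate 2 alone 693 and 367. Leaving out any 1 of the other 4 gave 85 to 115 higher and 25 to 39 lower.

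Individual genes illustrate what the 2 libraries do to that comparison. For each gene, the fold change between the 2 libraries and that between the others differ by the gap in its 2 differences. That follows by arithmetic, so the paired values below are description and no test. Where both differences were alike, the 2 fold changes were therefore close. Mmp12 rose with LPS+RCMNs by 3.33 ± 0.53 (log2, SE; adjusted p = 0.0174, edgeR), and the difference was 3.41 between the 2 libraries that stood apart and 3.30 between the means of the others. Cxcl2 rose by 3.13 ± 0.58 (adjusted p = 0.0280, edgeR), with 3.08 and 3.03 in the same order. Ccl2 rose by 3.01 ± 0.67 (adjusted p = 0.0490, edgeR), but was 3.91 and 2.89. Spp1 rose by 1.44 ± 0.22 (adjusted p = 0.0145, edgeR) and was 1.99 and 1.23. Without control replicate 3, LPS+RCMNs replicate 1 or LPS+RCMNs replicate 3 all 4 calls were lost, with adjusted p of 0.0642, 0.0689 and 0.0729 for Mmp12, 0.0909, 0.106 and 0.116 for Cxcl2, 0.119, 0.158 and 0.163 for Ccl2, and 0.0559, 0.0641 and 0.0691 for Spp1 (edgeR). Without control replicate 2 the adjusted p was 0.0540 for Mmp12, 0.0827 for Cxcl2 and 0.117 for Ccl2 (edgeR), and Spp1 was still called. With the replicate number as a block all 4 calls were lost too. The adjusted p was then 0.0807 for Mmp12, 0.118 for Cxcl2, 0.153 for Ccl2 and 0.0545 for Spp1 (edgeR). Ccl2 was also not called with FPKM of at least 5 required in at least 2 libraries (adjusted p = 0.0555, edgeR). On log2(FPKM + 1) its adjusted p was 0.0517 (limma).

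Where the differences were unlike, the fold change, by the same arithmetic, depended on which libraries entered. Ddit3 was 1.10 lower with LPS+RCMNs between the 2 libraries that stood apart (-1.10) and 1.13 higher between the others, and was not called over all 6 (0.30 ± 0.42, adjusted p = 0.724, edgeR). Slc7a11 was 0.77 and 2.89, and rose over all 6 by 2.11 ± 0.41 (adjusted p = 0.0318, edgeR), a call lost without any 1 library of the close pairs (adjusted p of 0.105 to 0.124, edgeR). Mt2 was 3.42 between the 2 libraries and 0.05 between the others, Tfrc 1.93 and 0.30, and Tnf 2.56 and 1.16, and edgeR called none of these 3 over all 6. For Tnf the adjusted p was 0.0647 (1.47 ± 0.37), against 0.0421 with no filter on low counts, 0.0438 with all 8 libraries (both edgeR) and 0.000290 with DESeq2. Without control replicate 1, Tnf was called at 1.10 (adjusted p = 0.00280, edgeR). Hmgcs1 was -0.01 and -0.76, and was not called (-0.47 ± 0.19, adjusted p = 0.204, edgeR), but without LPS+RCMNs replicate 2 it was, at -0.75 (adjusted p = 0.00329, edgeR). Hmox1 was 1.39 and 2.20, and also missed the threshold (2.08 ± 0.49, adjusted p = 0.0569, edgeR), but passed it with no filter (adjusted p = 0.0346), with all 8 libraries (0.0237) and without LPS+RCMNs replicate 2 (2.46, adjusted p = 0.00976) in edgeR, and with DESeq2 (adjusted p = 0.00963).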

How the data were processed

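Polyadenylated RNA of 8 MH-S libraries was measured, per the labels' protocols with TRIzol extraction, oligo(dT) enrichment and a BGI kit. The table deposited by the authors holds an expected count (estimated count, not normalized) and an FPKM per gene and library for 17518 genes, read_count and fpkm per the file headers; 77.8% of counts above 0 were over 0.001 from a whole number. Per the submitters' processing notes, mm10 was the genome build; the aligner, the counter and their annotation were not given in the sources used here. 4 per-sample columns that match no sample were not used.

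Counts of the 6 control and LPS+RCMNs libraries were rounded, filtered with filterByExpr and scaled by TMM (R 4.3.3, edgeR 4.0.16, limma 3.58.1). Differences are in log2 CPM with a prior count of 2. SE is the log2 fold change divided by the square root of F. Tests are edgeR's quasi-likelihood test with Benjamini-Hochberg adjustment at 0.05. Where replicates are not separate cultures, p-values cover technical spread alone. Alternatives included DESeq2 1.42.0, limma, other filters, scalings and folds, a removed length trend and left-out libraries. The procedure was tested on simulated data. Coordinates and promoters are from RefSeq GRCm38.p6 (99.7% of gene IDs matched); promoters were matched by gene ID.

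The libraries, the 43 gene lists and the tests were chosen with earlier results of these data known. The rule for named genes took, at a mean FPKM of at least 5, the 10 highest and 10 lowest shared genes, the 3 strongest members of each list with at least 3 shared genes, the 5 genes of smallest p in each direction of the difference between the libraries, and 19 fixed genes. Other genes named are list members or were chosen after their values were seen.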

Additional observations from a re-analysis of the deposited data

Results flagged for a closer look

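The 10 genes below were taken by the rule for named genes, as the 5 of smallest p in each direction in edgeR's quasi-likelihood fit of the gap between the difference of LPS+RCMNs replicate 2 from its group and that of control replicate 1. Each gap rests on 1 library a group, and these libraries were chosen because they stood apart, so the gaps are values only and the p-values are not printed. On the log2 scale the gap (LPS+RCMNs replicate 2 minus control replicate 1) was 3.40 for Mt2, 2.48 for Dmpk, 1.63 for Tfrc, 1.56 for Pdgfb and 1.23 for Lpl. It was -2.18 for Abcg1, -1.72 for Pck2, -1.66 for Ndrg1, -1.58 for Xdh and -1.57 for Tecpr1. Dmpk read 17.3 CPM in control replicate 1 against 111 and 109 in its group, and Abcg1 78.5 CPM against 29.1 and 28.2.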

How the results depend on the processing

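The set of shared genes depended on the filter and the scale. At least 2-fold in both libraries, 24 genes were higher with no filter on low counts. With FPKM of at least 5 required in at least 2 libraries, 1 was higher and 44 lower. On log2(FPKM + 1) it was 1 and 26, and at 1.5-fold 110 and 475. Leaving out a library of the close pairs gave 11 to 16 higher and 127 to 142 lower.

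For LPS+RCMNs versus control, DESeq2 gave 751 higher and 537 lower, an absolute log2 fold change of at least 1 gave 168 and 76, and all 8 libraries in 3 groups gave 385 lower. With the library that stood apart as a term it was 1354 and 1180, and without both libraries 2667 and 2508. Leaving out each library gave 85 to 693 higher and 25 to 393 lower. Without both libraries 4 fold changes that were not called turned sign: Abcg1 to 0.56, Pdgfb to -0.21, Tecpr1 to 0.27 and Trib3 to 0.53. The replicate number as a block gave 83 higher and 21 lower. Same-numbered control and LPS+RCMNs libraries correlated at -0.334, -0.364 and 0.244 in their deviations from the group means. These values cannot say whether the numbers pair the samples. The 2 libraries that stood apart, which carry different numbers, dominate the deviations.

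The fit of the gap between the 2 libraries, which were chosen from these counts, is no evidence on any gene group. It called 1850 genes above and 1988 below 0, and DESeq2 gave 784 above and 807 below 0, no filter 1216 above, limma on log2(FPKM + 1) 1221 above, and an absolute log2 value of at least 1 gave 90 and 361. Leaving out a library of the close pairs gave 1494 to 1697 above and 1720 to 1789 below. The cause of these changes was not tested. Depth limits the low genes: in 27 of the 128 shared lower genes a library that stood apart had at most 3 counts, which leaves the size of the difference uncertain.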
